A study of Mus musculus with 8 samples.

Results

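The mitochondrial ribosomal proteins were examined in AML12 cells, a hepatocyte line derived from mouse liver, with and without irisin treatment. The members are the genes whose array probe carries an accession that maps to a mouse symbol starting with Mrpl or Mrps and a number. This gave 78 of the 21612 genes on the array, with 103 of its 39429 probes. The Mrpl symbols, named for the large subunit, take 49 genes and 62 probes, and the Mrps symbols, named for the small subunit, take 29 genes and 41 probes. In the labels, 4 AML12 samples were cultured with 0.5 µg/ml irisin, the secreted peptide that is cleaved from Fndc5, and 4 control samples were cultured without it. Both groups were kept for 24 h in DMEM F-12 with fetal bovine serum, and no vehicle is named for the controls. Total RNA of each sample was labeled with Cy3 and hybridized to its own one-color Agilent array. AML12 is a single immortalized line, and the labels do not say whether the 4 samples of a group came from separate cultures on separate days, so the p-values measure only the spread between these samples, which may be technical.

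Mitochondria keep a ribosome of their own, which translates the few proteins still encoded in mitochondrial DNA, all of them core subunits of the respiratory chain and ATP synthase. Its RNAs come from mitochondrial DNA, whereas every protein of it is encoded in the nucleus, made on cytosolic ribosomes and imported. The complex is richer in protein than the bacterial ribosome from which it descends: many members have a bacterial counterpart, and others were added in the mitochondrial lineage. In liver it supplies the oxidative phosphorylation on which hepatocytes rely.

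The hepatocyte identity of the cells was checked first. Each of 9 hepatocyte markers, among them Alb, Ttr and Hnf4a, exceeded background clearly on all 8 arrays, as did 57.9% of all probes. Among markers of other liver cells this held for 1 of 4 mesenchymal markers (Col1a1), 1 of 4 immune markers (Cd3e) and 2 of 3 endothelial markers (Pecam1 and Kdr), while Pdgfrb, Des, Lrat, Lyz2 and Cdh5 did so on no array, Ptprc on 5 and Adgre1 on 3. Apart from Apoa1 at -2.68, the hepatocyte markers had mean control log2 signals, as defined below, from 0.05 (Afp) to 7.58 (Krt18). Kdr, Cd3e, Pecam1 and Col1a1 were at -0.51, -2.34, -4.46 and -5.21. With irisin, the endothelial and immune markers Pecam1, Kdr and Cd3e changed by -0.61, -0.56 and -0.51, the hepatocyte markers Krt18 and Trf by -0.47 and -0.39, and Col1a1 by 0.01. All but Col1a1 had an adjusted p under 0.05 in limma, where 17.9% of all tested genes were lower by this measure. Krt18 and Trf were the only 2 of the 9 hepatocyte markers to pass it. The others changed by 0.11 (Alb), -0.05 (Ttr), -0.17 (Apoa1), -0.04 (Apoe), -0.09 (Krt8), -0.10 (Hnf4a) and -0.09 (Afp). The part of these marker changes in the results was not tested. The irisin arrays were brighter as a whole, with a 75th percentile of 783 ± 71.6 (SD, n = 4) against 472 ± 70.1 (SD, n = 4) in the controls, which is 0.74 on the log2 scale. All values below are log2 signals relative to this percentile of the same array, so they show a gene against the rest of its array and not an amount per cell, and fewer cells with an mRNA cannot be told apart from less of it in each cell. The control arrays lay on 1 slide and the irisin arrays on another, each with its own scan, so an effect of slide or scan cannot be told apart from that of irisin. Precision is limited by the 4 arrays in each group.

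The family was detected almost without gaps. Of the 103 probes, 102 (99.0%) stood well above background on all 8 arrays, against 57.9% of all probes, and each of the 78 genes had at least 1 such probe. The exception was a second probe for Mrpl21, a large subunit protein, which stood above background on none and was not tested. The SD within groups had a median of 0.125 over the 102 member probes and 0.15 over all 24092 tested probes, a gap that came from the control arrays, as given further on.

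None of the 102 member probes passed both thresholds of the study, 1.5-fold and an adjusted p under 0.05 (limma, Benjamini-Hochberg). Over all 24092 tested probes the same rule called 0.714% higher and 11.7% lower with irisin. The called decreases were concentrated in dim probes, with 84.8% of them in the 30% of tested probes with the lowest mean signal, where only 3 of the 102 member probes lay. Above that 30%, 2.54% of probes were called lower and 0.7% higher. The 0 of 102 is therefore to be read against these last shares. At an unadjusted p under 0.05 in limma, 2 member probes were higher and 9 lower, against 6.45% and 27.8% of all tested probes and 7.39% and 18.2% of those above the dimmest 30%. With the adjusted p alone, 1 was higher and 2 were lower, against 2.96% and 21.6% of all tested probes and 3.39% and 12% of the brighter ones. Of the 99 members among the brighter probes, 1 was higher and 1 lower by the adjusted p, and 2 were higher and 8 lower by the unadjusted p. The test named in the study's methods, run on the same values with the same thresholds, also called 0 of 102 in either direction, against 0.448% higher and 10.8% lower of all tested probes.

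The intervals were narrow enough to bound most members. The standard error of a member's log2 change had a median of 0.096 and ran from 0.077 to 0.25. The 95% interval of the change lay wholly within 1.5-fold in both directions for 98 of the 102 member probes (96.1%), against 69.8% of all tested probes. Above the dimmest 30% these shares were 96 of 99 members (97.0%) and 83% of probes. The 4 others belonged to Mrpl13, Mrpl41, Mrps10 and Mrps5. The largest change of any member probe was 0.41 on the log2 scale, or 1.33-fold, and 96 of 102 changed by less than 0.25.

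**Figure D1:**
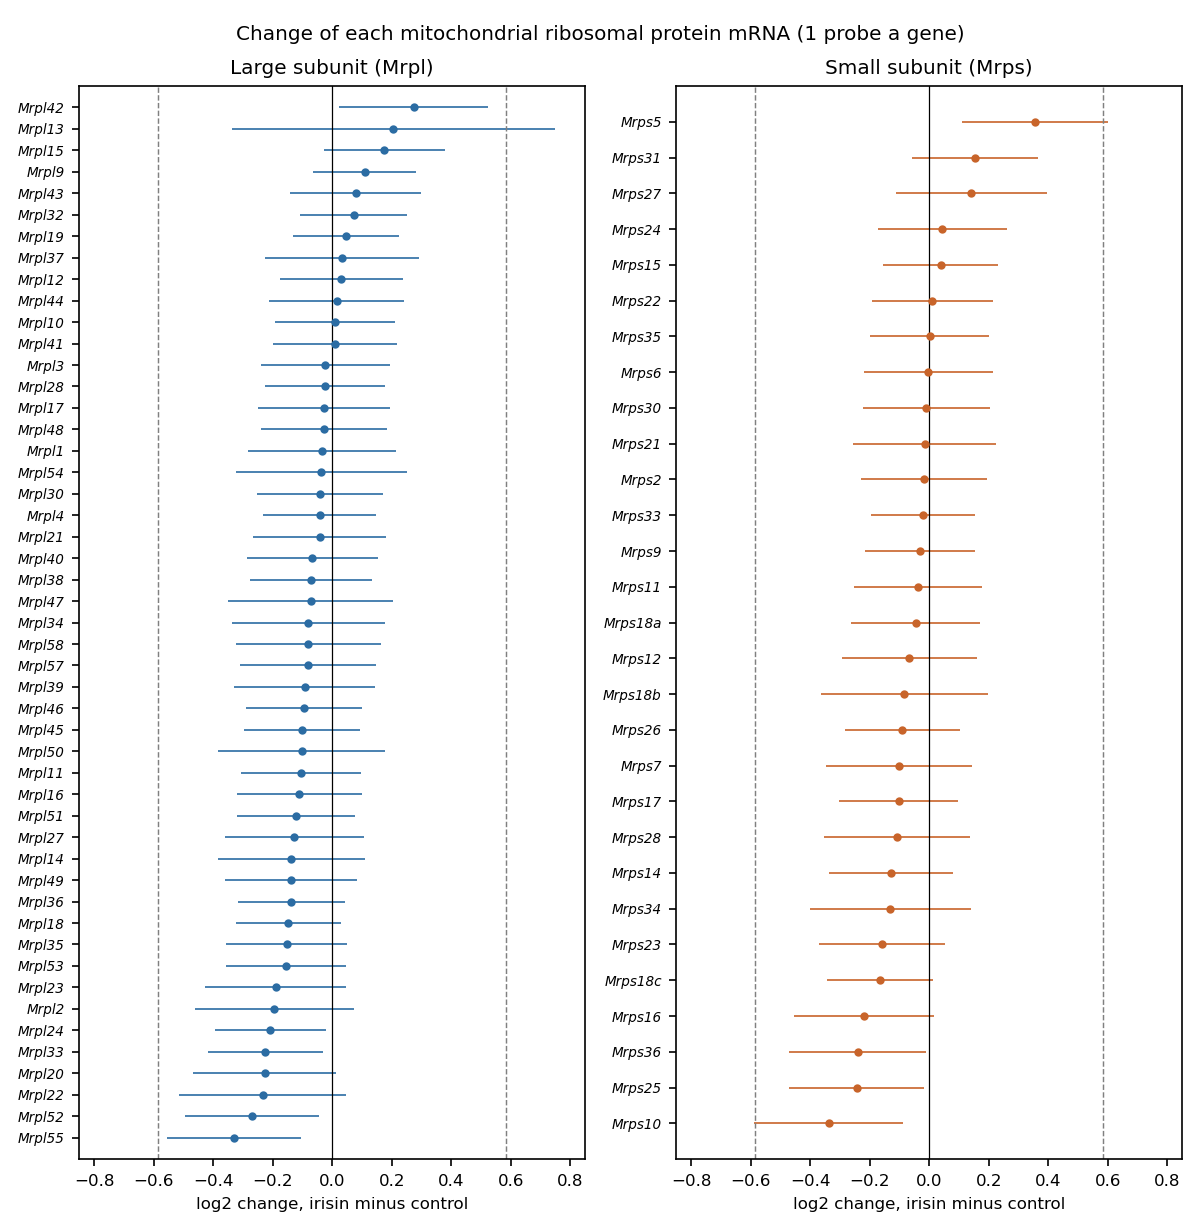
Log2 change with irisin (x axis) of each of the 49 large subunit genes (left) and 29 small subunit genes (right), 1 probe a gene, with its 95% interval from limma; dashed lines mark 1.5-fold. No point reaches a dashed line, and the points run from -0.34 for Mrps10 to 0.35 for Mrps5.

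The subunits were compared by letting the probe with the highest mean signal stand for its gene. The median change was -0.08 over the 49 large subunit genes, of which 37 lay below 0 and 12 above. It was -0.05 over the 29 small subunit genes, of which 22 lay below 0 and 7 above. All 14311 tested genes had a median of -0.06, so the large subunit stood at -0.02 and the small subunit at 0.02 relative to it. Counted by gene, 59 of the 78 members lay below 0, against 9159 of the 14311 tested genes. Counted by probe, 71.6% of the members' changes lay below 0, against 65.2% of all tested probes. On the single arrays, the median deviation of the large subunit genes minus that of the small subunit genes was 0.06, 0.00, 0.02 and 0.04 in controls 1 to 4 and 0.01, -0.02, -0.01 and -0.03 in irisin replicates 1 to 4. Irisin replicate 1 lay between the control values, so the groups overlapped. The sign of the difference between the subunits turned under several alternatives listed in the closing section.

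The symbols do not follow the place in the ribosome in every case. Mrps18a and Mrps30 encode proteins that sit in the large subunit, and Mrps36 encodes a component of the 2-oxoglutarate dehydrogenase complex. With the first 2 counted as large and Mrps36 left out, the medians relative to all genes were -0.01 for the large and 0.01 for the small subunit. The changes were -0.05 ± 0.10 (SE) for Mrps18a and -0.01 ± 0.10 (SE) for Mrps30. Those of the paralogues of Mrps18a, which take other places in the ribosome, were -0.08 ± 0.13 (SE) for Mrps18b and -0.17 ± 0.08 (SE) for Mrps18c. None of these passed the test, and the 95% intervals ran at most from -0.36 (Mrps18b) to 0.20 (Mrps30).

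The genes were then taken by their place in the ribosome. Of the 3 stalk proteins, which contact the translation factors, Mrpl10 changed by 0.01 (95% interval -0.19 to 0.21), Mrpl11 by -0.11 (-0.31 to 0.10) and Mrpl12, which also binds the mitochondrial RNA polymerase, by 0.03 (-0.18 to 0.24). The 8 proteins around the exit of the nascent chain had a median of -0.10, from -0.23 for Mrpl22 to 0.02 for Mrpl44. The 7 proteins of the central protuberance, among them Mrpl58, a peptidyl-tRNA hydrolase, ranged from -0.15 to -0.03, all below 0. The 8 proteins of the small subunit head had a median of -0.03 and ran from -0.34 for Mrps10 to 0.15 for Mrps31. Mrps12, of the decoding center, changed by -0.07 (95% interval -0.29 to 0.16). No gene of these groups was called. The 48 members with a bacterial counterpart had a median of -0.07, as had the 29 found only in mitochondria.

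Mrps5 showed the highest change. It encodes a small subunit protein with a bacterial counterpart. Its log2 signal was 0.59, 0.57, 0.40 and 0.18 in controls 1 to 4 and 0.79, 0.97, 0.69 and 0.71 in irisin replicates 1 to 4. Every irisin value lay above every control value. The change was 0.35 ± 0.11 (SE), with an adjusted p of 0.0394 in limma, below the 1.5-fold threshold. The exact two-sided permutation p was 0.0286, the smallest that 4 arrays against 4 allow. The ordering alone fixes this value, and it is not adjusted for the choice of Mrps5 as the highest change. Mrps5 had the only member probe in which the irisin arrays all lay above the controls. This ordering was seen in 4.18% of all tested probes and in 5.15% of those above the dimmest 30%. The adjusted p stayed under 0.05 in 2 of the 8 fits that left out 1 array (without control 1 and without control 2) and ran up to 0.105 (without control 4). It was 0.061 with normexp, 0.171 with normexp and quantile normalization and 0.0502 with quantile normalization.

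Mrpl55 and Mrps10 showed the lowest changes. Mrpl55, a large subunit protein, had log2 signals of 2.77, 2.60, 2.70 and 2.76 in controls 1 to 4 and 2.34, 2.60, 2.17 and 2.39 in irisin replicates 1 to 4. The groups did not overlap, but irisin replicate 2 lay beside control 2. Its change was -0.33 ± 0.10 (SE, adjusted p = 0.0358 in limma). The adjusted p was 0.0783 with the replicate number as a block, and with 1 array left out it stayed under 0.05 only without control 2 or irisin replicate 2, with a range from 0.00692 to 0.0989. Mrps10, in the small subunit head, had 2.51, 2.50, 2.52 and 2.42 in controls 1 to 4 and 1.95, 2.42, 1.97 and 2.25 in irisin replicates 1 to 4. The control values were tight, and irisin replicate 2 almost reached them. Its change was -0.34 ± 0.11 (SE, adjusted p = 0.0512 in limma). The adjusted p fell under 0.05 with normexp (0.0358), quantile normalization (0.0376), both together (0.0491), scaling to the median (0.0469), a stricter filter on dim probes (0.0482) and an intensity trend (0.0283). With 1 array left out it was under 0.05 in 1 of 8 fits (0.00736, without irisin replicate 2). In the other 7 it was not, and it ran up to 0.144 (without irisin replicate 3).

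The other members whose irisin arrays all lay below the controls were Mrpl52, Mrpl33 and Mrpl24, each of the large subunit, which makes 5 of 102 probes (4.9%) against 23% of all tested probes. All 5 lay above the dimmest 30%, where the share was 14.5%. Mrpl52 had 5.20, 5.15, 5.31 and 5.27 in controls 1 to 4 and 4.72, 5.13, 4.95 and 5.06 in irisin replicates 1 to 4, a change of -0.27 ± 0.10 (SE, adjusted p = 0.0806 in limma). Mrpl33 and Mrpl24, the latter near the exit tunnel, changed by -0.23 ± 0.09 and -0.21 ± 0.08 (SE), with adjusted p of 0.0908 and 0.106 in limma. They were named after their values were seen.

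The remaining members at both ends overlapped between the groups. At the upper end, Mrpl42 had 1.34, 1.21, 1.26 and 1.20 in controls 1 to 4 and 1.31, 1.40, 1.83 and 1.56 in irisin replicates 1 to 4, a change of 0.27 ± 0.11 (SE, adjusted p = 0.112 in limma). Mrpl15, Mrps31 and Mrps27 changed by 0.17, 0.15 and 0.14, with adjusted p from 0.214 to 0.44 in limma. Mrpl13 changed by 0.21 with the widest error of the family, 0.25 (SE). Its log2 signals were 4.50, 3.23, 4.43 and 4.39 in controls 1 to 4 and 4.26, 4.44, 4.25 and 4.43 in irisin replicates 1 to 4. The value rests on control 2 alone, since without that array the change was -0.10.

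At the lower end, Mrps25, a small subunit protein, had 4.62, 4.57, 4.61 and 4.61 in controls 1 to 4 and 4.16, 4.61, 4.26 and 4.41 in irisin replicates 1 to 4. Again the irisin arrays were spread and replicate 2 reached the controls, so that the change of -0.24 ± 0.10 (SE) had an adjusted p of 0.12 in limma. Mrps36 and Mrpl22 changed by -0.24 and -0.23, with adjusted p of 0.128 and 0.227 in limma.

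**Figure D2:**
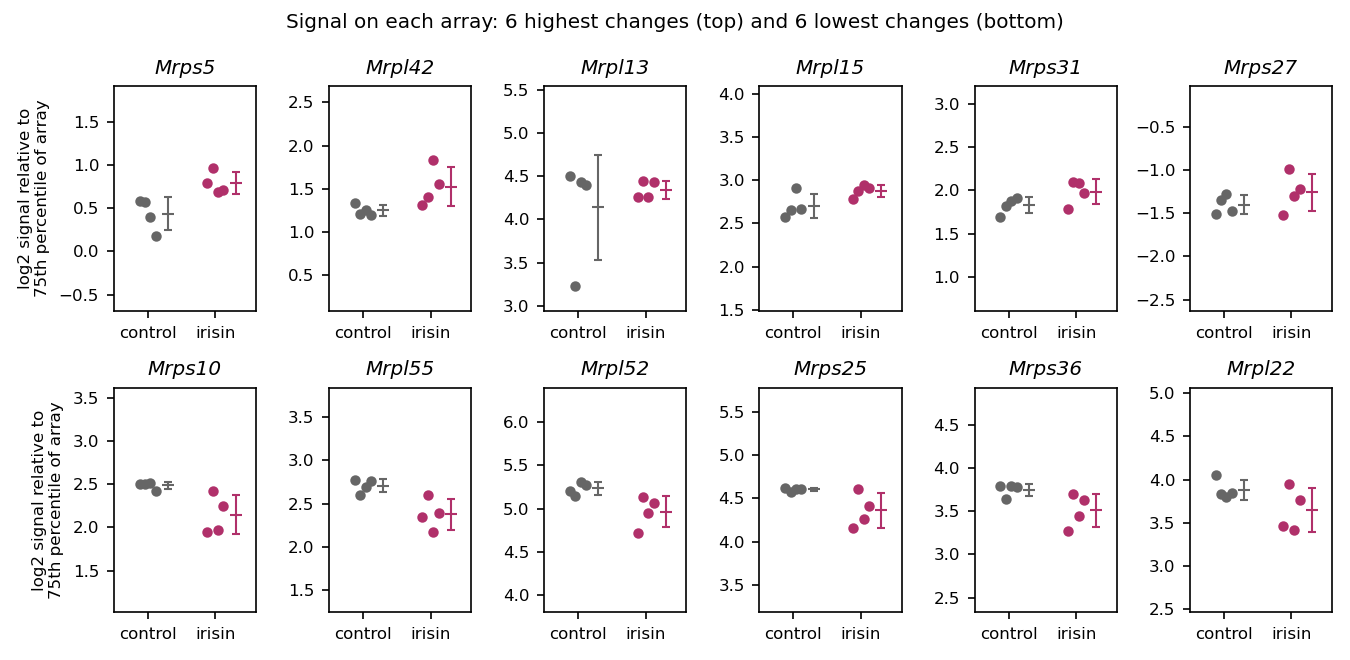
Log2 signal after subtraction of the array's 75th percentile (y axis) on each control and irisin array, for the 6 genes with the highest change (top row) and the 6 with the lowest (bottom row); points are replicates 1 to 4 from left to right, and the dash with bars is the mean ± SD (n = 4). Every panel spans the same range, so the low point of Mrpl13 in control 2 and the spread of the irisin arrays in the bottom row can be compared directly.

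The spread of the irisin arrays was seen in most members. Irisin replicate 2 was the highest of the 4 irisin arrays for 62 of the 78 members (79.5%), against 50.5% of all tested genes. Irisin replicate 1 or 3 was the lowest for 38 and 32 members, respectively. The SD of the irisin arrays exceeded that of the controls in 63 of the 78 members (80.8%), against 66.3% of all genes. The median SD was 0.154 with irisin, the same as for all genes (0.154), and 0.0781 in the controls, where all genes had 0.114. Large and small subunit genes showed the same order, with irisin replicate 2 highest for 39 of 49 and 23 of 29. Among the controls, replicate 2 was the lowest for 47 members (60.3%), against 32.8% of all genes. Members are measured on the same arrays, so these counts describe the arrays and are not independent observations.

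For 22 genes with more than 1 tested probe, the probes could be set against each other. The changes of a gene's probes differed by at most 0.42 on the log2 scale and had opposite signs in 13 of the 22. The widest gap was in Mrpl41, a large subunit protein, where the brighter probe changed by 0.01 ± 0.09 (SE) and a probe among the 30% with the lowest signal changed by -0.41 ± 0.12 (SE, adjusted p = 0.0316 in limma). This second probe was singled out after its values were seen, and its groups overlapped. For Mrpl22 the second probe changed by 0.07 against -0.23, for Mrps25 by -0.01 against -0.24, and for Mrpl15 by 0.00 against 0.17. For Mrps36 both probes lay below 0, at -0.11 and -0.24, and Mrps18b had further probes at -0.07 and 0.02 beside -0.08. For Mrpl10 the second probe changed by -0.20 against 0.01. Mrps5, Mrps10, Mrpl55 and Mrpl52 had 1 probe each.

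Proteins that work with the mitochondrial ribosome were described in the same way, as lists with no test of the list. The 5 ribosomal components with other symbols (Dap3, Ptcd3, Chchd1, Aurkaip1 and Gadd45gip1) had a median change of -0.14. None was called, to be read against the shares of all genes given below for the other lists. Chchd1, of the small subunit, was the lowest with -0.27 ± 0.09 (SE, adjusted p = 0.0499 in limma). The medians were -0.05 over 20 translation factors, -0.05 over 27 assembly factors and -0.02 over 22 genes of tRNA charging. The last of these lists holds tRNA synthetases and the amidotransferase subunits Qrsl1, Gatb and Gatc. Over 19 genes of mitochondrial DNA maintenance and transcription the median was -0.06, beside -0.06 for all genes. In these 4 lists 0 genes were called, where 0.531% of all genes were called higher and 10.2% lower, and 0.512% and 1.89% of genes above the dimmest 30% of probes. At an unadjusted p under 0.05 in limma they held 4 higher and 8 lower genes, against 5.94% and 23.6% of all genes and 6.61% and 13.8% of the brighter ones. With the adjusted p alone in limma, 2 were higher and 5 lower, against 2.65% and 17.9% of all genes and 2.87% and 8.38% of the brighter ones. The 2 were Tsfm, the exchange factor of the mitochondrial elongation factor Tu, at 0.26 ± 0.08 (SE), and Mettl17, an assembly factor of the small subunit, at 0.38 ± 0.11 (SE). The 5 were the initiation factor Mtif2 (-0.30), the RNA-binding proteins Slirp (-0.31) and Ptcd1 (-0.34), the assembly GTPase Eral1 (-0.30) and the glycyl-tRNA synthetase Gars (-0.39), which also serves the cytosol. Tfam, which packages mitochondrial DNA, changed by 0.15 and Polrmt, the mitochondrial RNA polymerase, by -0.09, and neither passed the test.

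The cytosolic ribosome differed from this at the 75th percentile scaling. All 79 of its tested protein genes lay below 0, with a median of -0.41, where 9159 of all 14311 tested genes did. Of the 79, 60 had a lower value with an adjusted p under 0.05 in limma, against 17.9% of all genes and 8.38% of the brighter ones. Reaching 1.5-fold as well, 5 were called (Rpl13a, Rpl4, Rpl7, Rps10 and Rps21, from -0.66 to -0.59), which is 6.33% of the list, against 10.2% of all genes and 1.89% of those above the dimmest 30%. This count was 2 without control 1 or irisin replicate 4, 13 without irisin replicate 2 and 0 with normexp, and without scaling 5 of these genes were called higher and 0 lower. On the single arrays the median deviation of these genes relative to all genes lay between 0.09 and 0.26 in the controls and between -0.22 and -0.05 with irisin, without overlap. For the mitochondrial ribosomal proteins it lay between -0.03 and 0.02 in the controls and between -0.06 and 0.11 with irisin, with overlap. The 81 tested nuclear genes of oxidative phosphorylation, whose products assemble with the proteins that the mitochondrial ribosome makes, lay between, with a median of -0.22, 77 below 0 and 2 called lower (Cox4i2 and Cox6b2, at -0.67 and -0.62). That is 2.47% of the list, against the same 10.2% and 1.89%. Both had low signals, with means of -2.60 and -2.97 in the controls. With the adjusted p alone in limma, 22 of the 81 were lower (27.2%) and 0 higher. The shares lower were 17.9% of all genes and 8.38% of the brighter ones. The median deviation of the oxidative phosphorylation genes relative to all genes overlapped between the groups. It ran from 0.01 to 0.10 in the controls and from -0.14 to 0.04 with irisin, since irisin replicate 2 lay above control 2.

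**Figure D3:**
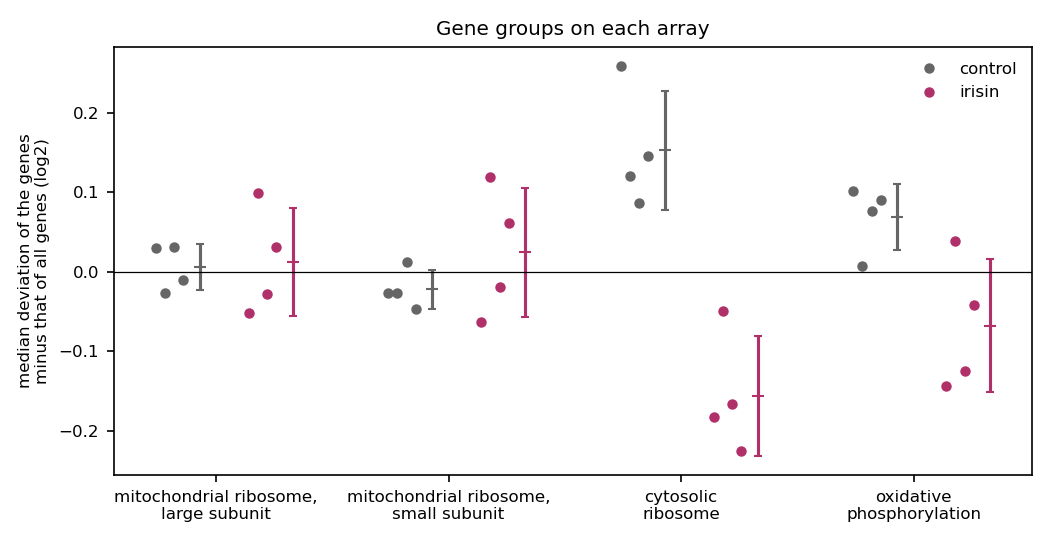
Median deviation of the genes of 4 groups from their mean over all arrays, minus that of all tested genes (y axis, log2), on each control and irisin array; the dash with bars is the mean ± SD (n = 4). Control and irisin points overlap for both subunits of the mitochondrial ribosome and are separate for the cytosolic ribosome.

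The contrast between the 2 ribosomes depended on the scaling between arrays. With quantile normalization the median change relative to all genes was -0.02 for the cytosolic ribosome, 0.02 for the large and -0.01 for the small mitochondrial subunit. With cyclic loess it was -0.19, -0.01 and 0.00 in the same order, and 0 cytosolic ribosomal genes were called with either. The oxidative phosphorylation genes moved from -0.15 relative to all genes to -0.03 with normexp, -0.01 with quantile normalization and -0.08 with cyclic loess. Both mitochondrial subunits stayed within 0.02 of the median of all genes with quantile normalization, cyclic loess and normexp followed by quantile normalization, while with normexp and the 75th percentile the large subunit stood 0.11 and the small subunit 0.13 above it. The other scalings shift each array by a constant, so a value relative to all genes can hardly move under them. When the arrays were scaled to 8 spike-in probes or not scaled, the median of all genes moved to 0.51 and 0.67, and the members moved with it. Then 27 and 82 of the 102 member probes were called higher, against 32.4% and 61.9% of all tested probes.

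**Figure D4:**
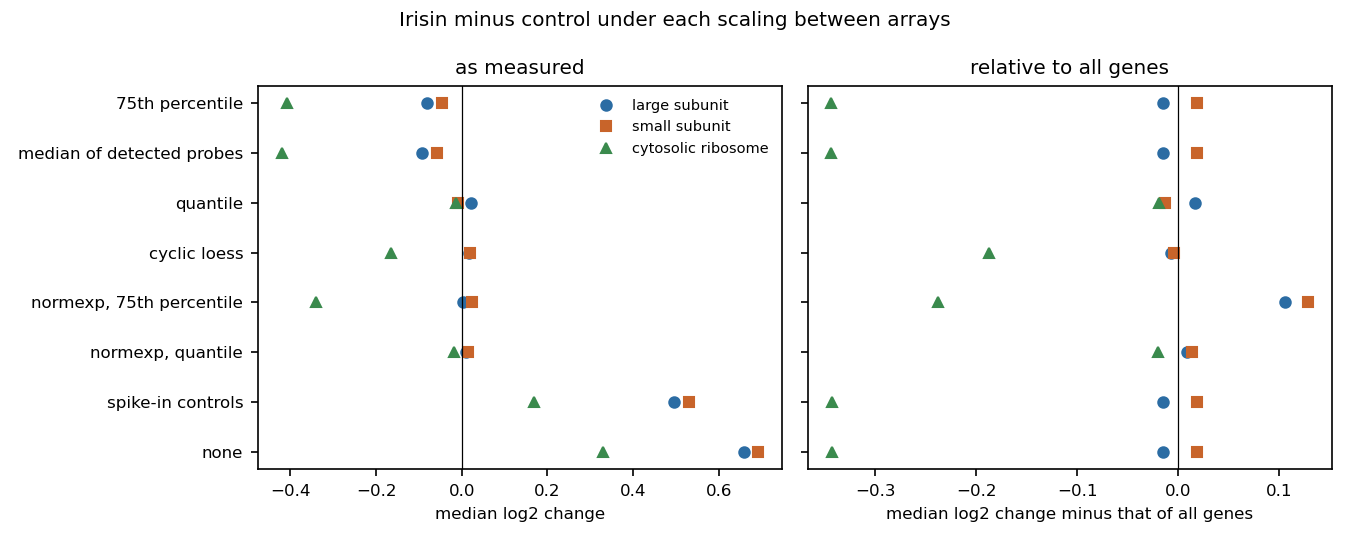
Median log2 change with irisin of the large subunit, the small subunit and the cytosolic ribosome under 8 ways of scaling the arrays, as measured (left) and minus the median of all tested genes (right). On the right, the scalings by a constant per array (75th percentile, median, spike-in controls, none) give nearly the same values by construction. The mitochondrial subunits stand apart from the median of all genes with normexp and the 75th percentile, and the cytosolic ribosome moves from -0.34 to -0.02 relative to it.

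Sequence features that the choice of members did not use were taken from the promoters in RefSeq (GRCm38.p6), 250 bases before to 50 after the start of a gene, which were matched for 69 of the 78 members. Where a gene had several, the first listed was used. The letters CCGGAAG, recognized by ETS factors such as GABP (NRF2), stood on either strand in 25 of 69 promoters (36.2%), against 11.9% of the promoters of 17492 protein-coding genes and 9.12% of all 27025. ATGGCGG, of YY1, stood in 13 (18.8%, against 5.41% and 4.19%) and GCATGCG, of NRF1, in 8 (11.6%, against 4.49% and 3.64%). CACGTG, the E-box bound by MYC, stood in 5 (7.25%, against 7.90% and 7.24%). None of these letter strings contains another. The median GC content of the member promoters was 58.3%, against 56.3% in protein-coding genes. The median change with irisin was -0.08 over the 25 genes with the ETS letters and -0.07 over the 44 without them. With and without the other strings it was -0.04 over 13 and -0.08 over 56 genes for YY1, -0.06 over 8 and -0.08 over 61 for NRF1, and -0.17 over 5 and -0.08 over 64 for the E-box. Such matches describe the letters and not a bound site.

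The stretches of 80 bases before the start are shown for the 2 members that passed the adjusted p alone, Mrps5 (chr2:127587346-127587425, plus strand) and Mrpl55 (chr11:59202406-59202485, plus strand), which hold none of the 4 strings in these bases. The window of Mrps5 holds the YY1 string after the start, outside the stretch shown. They are followed by Mrpl52 (chr14:54426829-54426908, plus strand) and Mrpl22 (chr11:58171584-58171663, plus strand) from the lower end of the changes and Mrps27 (chr13:99344706-99344785, plus strand) from the upper end, which hold the ETS letters. All are written 5′ to 3′ on the strand of the gene, with matches in capitals. In Mrpl22 the first run of capitals is the ETS string and the second is the NRF1 string on both strands, overlapping by all but 1 base on each side.
Mrps5: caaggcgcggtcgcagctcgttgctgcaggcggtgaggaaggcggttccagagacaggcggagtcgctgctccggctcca
Mrpl55: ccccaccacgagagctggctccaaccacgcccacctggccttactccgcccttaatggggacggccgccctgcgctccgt
Mrpl52: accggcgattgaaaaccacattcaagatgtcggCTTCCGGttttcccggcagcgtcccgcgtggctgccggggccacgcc
Mrpl22: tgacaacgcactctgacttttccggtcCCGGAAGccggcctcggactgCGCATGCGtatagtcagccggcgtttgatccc
Mrps27: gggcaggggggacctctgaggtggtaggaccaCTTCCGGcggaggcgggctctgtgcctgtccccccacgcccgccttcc
Mrpl46 to Mrps11: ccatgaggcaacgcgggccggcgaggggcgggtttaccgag
The last line is the 41 bases between the starts of Mrpl46 and Mrps11 (chr7:78783090-78783130, plus strand), which are transcribed away from each other, so that a large and a small subunit gene share this interval. Mrpl46 changed by -0.09 ± 0.09 (SE) and Mrps11 by -0.04 ± 0.10 (SE). Starts on the opposite strand within 1000 bases upstream, transcribed away from the gene, were common in the family. They were found for 24 of 69 members (34.8%) against 8.04% of protein-coding genes. The neighbors included other mitochondrial genes, such as Twnk, the mitochondrial DNA helicase, beside Mrpl43, the mitochondrial seryl-tRNA synthetase Sars2 beside Mrps12, and Ptcd2 beside Mrps27. The partners had a median change of -0.06. Mrpl46 and Mrps11 are each other's partner, so the 24 partners include these members of the family itself. Of the 24, 1 was called, Eme1, a subunit of a DNA structure-specific endonuclease, at -0.69 (adjusted p = 3.00e-04 in limma). Its neighbor Mrpl27 changed by -0.13 ± 0.11 (SE). With both thresholds 0.531% of all genes were called higher and 10.2% lower, and 0.512% and 1.89% of the brighter ones. Of the partners that were not called, 3 had an adjusted p under 0.05 in limma. By this measure 2.65% of all genes were higher and 17.9% lower, and 2.87% and 8.38% of the brighter ones. Fau, a cytosolic ribosomal protein gene beside Mrpl49, changed by -0.53, Ska3, of the spindle, beside Mrpl57, by 0.44, and Mitd1 beside Mrpl30 by 0.40. Their neighbors in the family changed by -0.14, -0.08 and -0.04 and did not pass the test. Eme1, Fau, Ska3 and Mitd1 were named after their values were seen.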

How the data were processed

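The authors labeled RNA of 4 control and 4 irisin samples, hybridized it to one-color arrays and processed the scans with Agilent Feature Extraction 12.0.3.1, per the file headers. The deposited signal intensity is linear, background-subtracted and not normalized between arrays. Without control spots and outlier-marked spots, the spots of a probe were averaged, log2 was taken, and the 75th percentile of each array was subtracted. Accessions of 28663 probes (72.7%) were named through RefSeq (GRCm38.p6). Probe positions in the files are on mm9 and are not printed. Probes well above background throughout 1 group or both were tested, with limma 3.58.1 in R 4.3.3 and Benjamini-Hochberg adjustment over all 24092 probes. A gene was represented by its brightest probe on average. In simulated arrays, 87% of 200 probes changed by 1 on the log2 scale among 24022 were called, with 3 false calls. That change is larger than any seen in a member, and the noise was independent between probes. The share therefore does not tell how often smaller changes would be called. Members and lists were chosen with earlier results of these data known. Named genes are the 6 highest and 6 lowest changes, called members of each list, the stalk proteins and Mrps18a, Mrps18b, Mrps18c, Mrps30 and Mrps36. Other genes given with values are outside this rule. Among them, Chchd1 and the genes of related lists that passed the adjusted p alone were singled out by their values. Alternatives were normexp (offset 50, local background above 100 set to the median of its array for 16 spots), other scalings, filters, thresholds and models, the replicate block and leaving out each array. Normexp with quantile normalization was chosen after seeing the data. Python 3.11.15 was used for reading the files. Same-numbered samples correlated from -0.35 to 0.17 in their deviations, which gave no ground to pair the samples by number. With 4 arrays in each group this cannot exclude a pairing.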

Additional observations from a re-analysis of the deposited data

Results flagged for a closer look

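In the control group of 3 of the named members, 1 array lay far from the other 3 relative to the range of the group. For Mrpl13, control 2 was at 3.23 and the others between 4.39 and 4.50. For Mrps36, control 2 was at 3.645 and the others between 3.78 and 3.79. For Mrpl22, control 1 was at 4.05 and the others between 3.80 and 3.84. A total of 42 groups were checked, and chance marks about 1 in 20 groups of 4. Control 2 was also the lowest control for 47 of the 78 members. Why these values stand apart was not tested.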

How the results depend on the processing

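No member probe was called in either direction under most alternatives. The exceptions were scaling to spike-in controls (27 higher), no scaling (82 higher), the adjusted p alone (1 higher and 2 lower) and no filter on dim probes (1 lower, the second Mrpl21 probe, where 32.3% of all probes were called lower). Leaving out each array in turn gave 0 higher and 0 lower throughout. Relative to all genes, the large subunit moved from -0.02 to 0.11 with normexp background correction and to 0.11 with no filter, and the small subunit from 0.02 to 0.13 and 0.15. Leaving out each array gave -0.04 to 0.02 and -0.02 to 0.05, respectively. With no filter the medians of the subunits themselves stayed at -0.08 and -0.05. Only the median of all genes changed there, from -0.06 to -0.19, as dim probes entered it. The difference of the subunits was -0.03, and it became 0.029 under quantile normalization, -0.00265 under cyclic loess and -0.00451 under normexp followed by quantile normalization. It ran from -0.0467 to 0.00334 without each array in turn, turning to 0.00334 without control replicate 1 and to 0.00212 without control replicate 4. The cause of the other shifts was not tested.

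Among the named genes, the sign turned under spike-in scaling and in unscaled values for Mrpl11 (0.47 and 0.63), Mrpl22 (0.34 and 0.50), Mrpl52 (0.31 and 0.47), Mrpl55 (0.25 and 0.41), Mrps10 (0.24 and 0.40), Mrps18a (0.53 and 0.69), Mrps18b (0.49 and 0.65), Mrps18c (0.41 and 0.57), Mrps25 (0.33 and 0.49), Mrps30 (0.57 and 0.73) and Mrps36 (0.34 and 0.50). Relative to the medians of all genes under these scalings, 0.51 and 0.67, these genes other than Mrps18a and Mrps30 stayed below. Under normexp the sign turned for Mrpl11 (0.0293), Mrps18a (0.0869), Mrps18b (0.0288) and Mrps30 (0.0495), and under normexp followed by quantile normalization for Mrpl11 (0.0926), Mrps18a (0.0553), Mrps18b (0.0779) and Mrps30 (0.0114). It turned under quantile normalization for Mrpl11 (0.041), Mrps18b (0.0529) and Mrps30 (0.00888), and under cyclic loess for Mrpl11 (0.0384), Mrps18a (0.0141), Mrps18b (0.0564) and Mrps30 (0.0539). Mrpl10 was at -0.00291 with scaling to the median. Without each array in turn, Mrpl10 ran from -0.0388 to 0.0541, Mrpl12 ran from -0.0343 to 0.0817, Mrpl13 ran from -0.098 to 0.33, Mrps18a ran from -0.0962 to 0.0154 and Mrps30 ran from -0.0816 to 0.0421. The replicate block called 0 of 102 member probes at both thresholds, and with the adjusted p alone Mrpl55 was no longer under 0.05 (0.0783). The medians relative to all genes with the block were -0.02 and 0.02. Since each group has its own slide, no fit can separate slide and treatment, and depth is set by the signal over background, which only the second Mrpl21 probe failed to reach.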
